A study of Mus musculus with 54 samples.

Results

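The 10 genes described here were Ly6a, Ly6c1, Ly6c2, Ly6e and Ly6i of the Ly6 family and Ms4a4c, Ms4a6b, Ms4a6c, Ms4a6d and Ms4a7 of the Ms4a family, 10 of 39179 genes in the count tables. They were chosen by symbol, selected on their CPM (reads per gene scaled to library size) in 1 contrast, because Ly6a and Ms4a4c lay far higher with the negative siRNA pool than with the transfection reagent alone, so that contrast is given below as a description, without a test. RNA-seq was made from adherent peritoneal macrophages of C57BL/6 mice, elicited with thioglycolate and cultured unpolarized (M0), with LPS and IFNγ (M1-like) or with IL-4 (M2-like). In the first experiment, cells of 3 mice were taken after 24 h in each of the 3 states, with 2 technical replicates per mouse, which were summed. The second held 12 conditions of 3 replicates each: M0, M1-like and M2-like cells left untransfected, the same 3 states with transfection reagent only (mock), and M2-like cells given a negative siRNA pool, a pool against E2f1, Myc, Pparg or Stat6, or a combined pool against all of them. Mock and siRNA libraries were taken 48 h after transfection, in M2-like cells without IL-4 from then on. The sources do not clearly say when the untransfected cells of this experiment were taken, so that time and transfection cannot be told apart wherever those cells are the reference. Whether the replicates of the second experiment came from separate animals was not stated, so that its p-values measure the spread between these libraries only. Summed libraries of the first experiment held 39577911 to 59443987 counted reads and those of the second 13421854 to 19704195.

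Ly6 proteins are small surface proteins held in the membrane by a GPI anchor. Ly6a is known as stem cell antigen Sca-1, and Ly6c1 and Ly6c2 encode the Ly6C antigen used to tell inflammatory monocytes from other cells. Ms4a proteins cross the membrane several times and are best known from the B cell antigen encoded by Ms4a1; Ms4a7 and the Ms4a6 genes are expressed in macrophages. Several genes of both families, Ly6a and Ly6e among them, are known to be induced by interferons, while IL-4 acts through the transcription factor STAT6.

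The 5 Ly6 genes lay within 156 kb of chromosome 15 (GRCm38, 74955051 to 75111970) and the 5 Ms4a genes within 283 kb of chromosome 19 (11321039 to 11604849). In the GENCODE annotation of that build, Ly6e stood at 74955051 to 74959905 on the plus strand, followed on the minus strand by Ly6i at 74979534 to 74983430, Ly6a at 74994877 to 74998031, Ly6c1 at 75044018 to 75048830 and Ly6c2 at 75108158 to 75111970. On chromosome 19 the order was Ms4a7 at 11321039 to 11336146 on the minus strand, Ms4a4c at 11404770 to 11427246, Ms4a6c at 11469366 to 11482192 and Ms4a6b at 11516512 to 11531256 on the plus strand, and Ms4a6d at 11586604 to 11604849 on the minus strand. Coding sequences of Ly6c1 and Ly6c2 were 91.6% identical, those of Ly6a and Ly6i 86.3%, and those of Ms4a6b and Ms4a6c 87.5%. Ly6e shared 57.5% to 57.6% with the other Ly6 members. The first 60 coding bases are shown as an example of how alike the Ly6 genes are, with capitals marking bases that differ from Ly6c2 (GENCODE, GRCm38). How far reads can be shared was measured over whole transcripts, as given below.
Ly6c2: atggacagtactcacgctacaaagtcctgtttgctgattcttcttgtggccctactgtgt
Ly6c1: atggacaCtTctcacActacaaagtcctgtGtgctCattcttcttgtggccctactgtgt
Ly6a: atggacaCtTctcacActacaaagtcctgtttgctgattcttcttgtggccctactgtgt
Ly6i: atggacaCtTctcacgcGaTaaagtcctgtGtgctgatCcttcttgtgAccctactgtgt
Ly6e: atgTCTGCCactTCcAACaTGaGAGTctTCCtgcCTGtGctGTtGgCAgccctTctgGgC
Over these bases Ly6a differed from Ly6c2 at 3 positions, Ly6c1 at 5, Ly6i at 7 and Ly6e at 32.

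Reads shared between paralogs limit what each gene's count means. Of all 50-base windows in its transcripts, 32.8% of those of Ly6c1, 19.0% of Ly6a, 14.4% of Ly6c2, 4.76% of Ly6i and 0% of Ly6e occurred unchanged in another gene, chiefly in other Ly6 members. At 150 bases the shares were 2.29% for Ly6c1, 1.42% for Ly6c2 and 0% for Ly6a, Ly6i and Ly6e. The first experiment read single 50-base ends and the second read both ends over 150 bases, so the sharing weighed more on the first. Ms4a6c shared 51.4% of its 50-base windows and 44.2% of its 150-base windows, chiefly with the overlapping transcript BE692007, for which no count was analysed here. Ms4a4c shared 8.19% at 50 bases, mainly with Ms4a4b, and the other Ms4a members at most 3.57%. How the authors treated reads with several matches, and whether they counted by strand, was not given in the sources used here. Ms4a4c, Ms4a6b and Ms4a6c each overlap a gene on the opposite strand, whose reads cannot be told apart from theirs without strand.

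Promoter windows (250 bases before to 50 after a start, RefSeq, GRCm38.p6) were found for 6 of the 10 members: Ly6c1, Ly6c2, Ms4a4c, Ms4a6b, Ms4a6c and Ms4a7. They were searched on both strands for the interferon-response core GAAANNGAAA, present in 3.44% of all 32851 windows, and the STAT6-type site TTCNNNNGAA, in 6.95%. Matches to the patterns may overlap in letters, and none did here. The members' windows held no match to the first pattern. A STAT6-type match stood 13 bases before a start of Ms4a7, and another 9 bases after that of Ms4a6b. The 250 bases before that start of Ms4a7 (chr19:11336147-11336396, minus strand, match in capitals) are shown because the highest 24 h level of Ms4a7 was that with IL-4, and those before Ms4a4c (chr19:11407411-11407660, plus strand) because it had the largest fitted rise of the target pools against untransfected M2-like cells. The matches are a description of letters only.
Ms4a7: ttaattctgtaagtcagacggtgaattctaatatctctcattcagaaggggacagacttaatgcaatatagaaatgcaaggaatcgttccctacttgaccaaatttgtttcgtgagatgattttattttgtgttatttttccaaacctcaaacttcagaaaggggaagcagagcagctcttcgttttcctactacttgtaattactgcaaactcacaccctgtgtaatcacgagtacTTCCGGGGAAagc
Ms4a4c: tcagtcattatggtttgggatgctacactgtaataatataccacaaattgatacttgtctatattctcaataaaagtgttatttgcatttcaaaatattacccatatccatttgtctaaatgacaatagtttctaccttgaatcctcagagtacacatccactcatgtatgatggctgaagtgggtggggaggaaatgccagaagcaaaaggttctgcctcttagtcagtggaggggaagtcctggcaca

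After 24 h, 10 of 10 members were higher in M1-like than in M0 cells by edgeR's quasi-likelihood test (adjusted p under 0.05), where 35.4% of 16110 tested genes were called higher. Fitted to M0 and M2-like cells alone, only 7 members passed the filter on low counts. Ly6c1, Ly6c2 and Ly6i passed it through the M1-like libraries, where they were high, so their calls add no support to this count. The rises ran from a log2 fold change of 0.71 for Ms4a7 to 12.27 for Ly6i. In bulk RNA, fewer cells of a type and less RNA per cell cannot be told apart. Levels below are CPM scaled by TMM, with the values of mouse 1, 2 and 3 in that order.

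Ly6a stood at 0.460, 0.373 and 0.404 CPM in M0, 370.8, 368.5 and 556.7 in M1-like and 0.278, 0.159 and 0.218 in M2-like cells, a log2 fold change of 10.03 ± 0.23 (SE) between M1-like and M0 (adjusted p = 2.61e-12). The M1-like libraries lay far above the others, and the M2-like ones just below M0 without overlap. Ly6i, a close paralog of Ly6a, gave 3, 2 and 5 counts in M0 against 10374, 11618 and 19159 in M1-like cells (12.27 ± 0.28, adjusted p = 2.94e-12). Ly6c2 rose from 5, 5 and 6 counts to 1254, 1492 and 2673, which were 33.9, 38.1 and 55.6 CPM (8.68 ± 0.28, adjusted p = 4.65e-11). Both genes were thus close to absent without LPS and IFNγ, and their M1-like libraries did not overlap with those of M0 or M2-like cells. Ly6c1 gave 493, 454 and 878 counts in M1-like cells and 3 counts in all M0 libraries together, a ratio of 773.7 (95% interval 264.3 to 3755, counting error only). Ly6e, which was already expressed in M0 at 90.5, 102 and 120 CPM, reached 392.6, 457.9 and 761.5 in M1-like cells (2.37 ± 0.23, adjusted p = 1.71e-06). When the 4 paralogs Ly6a, Ly6c1, Ly6c2 and Ly6i, whose reads can be exchanged, were summed, the change was 10.41 on the log2 scale.

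Among the Ms4a genes, Ms4a4c behaved like Ly6a at this time. It stood at 0.360, 0.373 and 0.331 CPM in M0 and at 120.3, 161.6 and 245.8 in M1-like cells (log2 fold change 8.95 ± 0.33, adjusted p = 1.55e-10). Ms4a6b rose from 3.88, 4.22 and 4.06 to 31.7, 39.1 and 56.4 CPM (3.39 ± 0.19). Ms4a6c, read together with its overlapping transcript, rose from 25.0 to 27.6 CPM to 232.7 to 346.8 (3.44 ± 0.13), and Ms4a6d from 137.0 to 152.1 to 927.9 to 1207 (2.86 ± 0.10). These 3 genes had a clear level in M0 and separated fully from it in M1-like cells. Ms4a7 was the exception in order: its highest libraries were M2-like, with 119.2, 101.2 and 95.8 CPM, against 61.4, 78.9 and 88.8 in M1-like and 50.3, 46.2 and 43.7 in M0 cells.

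**Figure D1:**
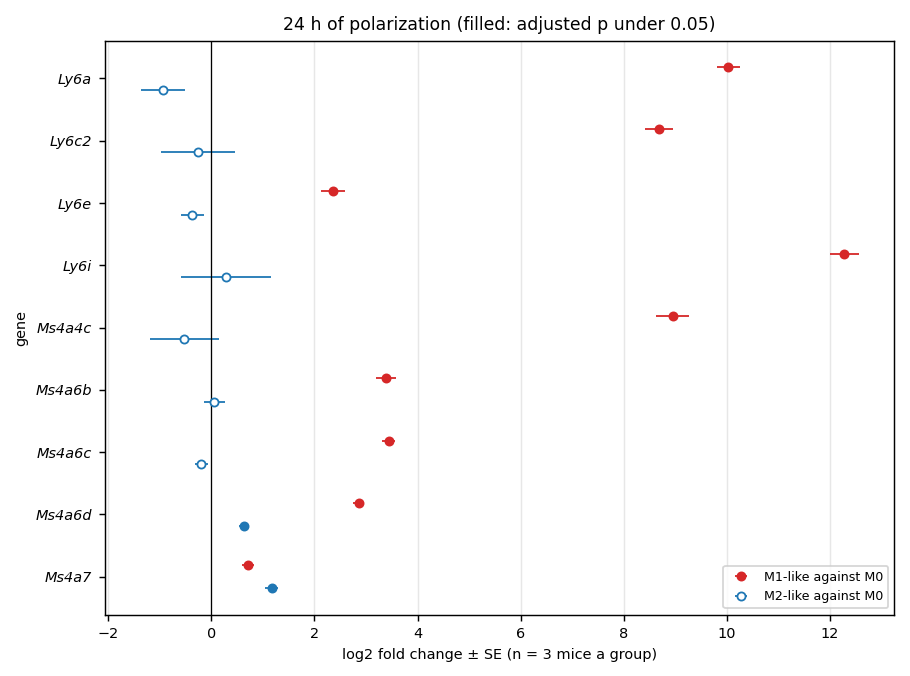
Log2 fold changes of members after 24 h in M1-like and M2-like against M0 cells (horizontal axis; error bars, SE of the edgeR fit; filled points, adjusted p under 0.05). Ly6c1 is left out because its M0 libraries held 3 counts in all; Ly6a, Ly6c2, Ly6i and Ms4a4c moved by over 8 with LPS and IFNγ, and Ms4a7 moved further with IL-4 (1.17) than with LPS and IFNγ (0.71).

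With IL-4 for 24 h, Ms4a7 (1.17 ± 0.12, adjusted p = 3.88e-05) and Ms4a6d (0.63 ± 0.10, adjusted p = 0.000709) were higher than in M0, and no other member was called (background 13.5% higher). With the mouse as a block, which the shared mice allow, Ly6a (-0.95, adjusted p = 0.0308) and Ly6e (-0.38, adjusted p = 0.0147) were also called, both lower in M2-like cells. Between M1-like and M2-like cells, 9 members were higher in M1-like (background 34.6%) and Ms4a7 was lower by 0.46 on the log2 scale (adjusted p = 0.0044, background 38.1% lower). The limit that the filter set for Ly6c1, Ly6c2 and Ly6i holds here too. Ms4a7 was thus called higher in both polarized states than in M0, and highest with IL-4. Markers of other cells also moved: summed B cell markers were 32.4 to 38.0 CPM in M1-like against 148.3 to 168.3 CPM in M0 and M2-like cells, and monocyte markers 15.5 to 19.6 against 5.35 to 10.05. Macrophage markers summed to 10281 to 11296 CPM in M1-like and 12706 to 17376 CPM in the other cells. Endothelial markers were 26.0 to 45.0 CPM in M1-like against 4.26 to 13.4 CPM in the other cells, and T and NK cell markers 4.89 to 5.88 against 0.601 to 1.62. Eosinophil markers were lower in M1-like cells, at 0.27 to 0.817 against 14.1 to 19.1 CPM, as were neutrophil markers, at 10.2 to 15.2 against 29.7 to 42.5. Their part in these results was not tested.

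In the untransfected cells of the second experiment, Ly6a was high in M1-like cells, and Ms4a4c was not called. Ly6a stood at 0.366, 1.43 and 0.409 CPM in M0, 106.5, 150.2 and 132.7 in M1-like and 0.215, 0.902 and 0.331 in M2-like cells (M1-like against M0 7.40 ± 0.38, adjusted p = 3.71e-17). Ms4a4c stood at 0.732, 0.807 and 0.409 in M0 and 1.65, 0.669 and 1.89 in M1-like cells, which overlapped (1.11 ± 0.85, adjusted p = 0.27). The difference between the experiments was not tested, since they differ in read length and were scaled apart. Ly6i (23.3, 18.1 and 22.1 CPM in M1-like; 7.46 ± 0.63) and Ly6c2 (3.24, 3.28 and 2.97 CPM; 4.72 ± 0.60) were likewise higher than in M0, where both gave 0 to 3 counts a library. Ly6e (1.42 ± 0.29) and Ms4a6d (0.58 ± 0.18) also rose, which makes 5 of 9 tested members against a background of 29.0%. Of these, Ly6a, Ly6c2 and Ly6i had few counts in M0 and M2-like cells and passed the filter through groups where they were high. Ms4a6b, Ms4a6c and Ms4a7 were not called, with log2 fold changes of 0.71 ± 0.46, 0.40 ± 0.25 and -0.17 ± 0.17. Ly6c1, with 0 to 6 counts in each library of this experiment, did not pass the filter on low counts and was not tested. Other markers differed between the same M1-like and M0 libraries: B cell markers summed to 21.4 to 30.2 against 148.0 to 174.9 CPM, monocyte markers to 0.757 to 1.47 against 10.8 to 16.8 CPM and macrophage markers to 6642 to 7786 against 16475 to 16833 CPM, and their part was not tested.

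Untransfected M2-like cells again had more Ms4a7 than M0 cells, at 116.6, 96.7 and 121.3 against 52.5, 45.6 and 49.04 CPM (1.19 ± 0.17, adjusted p = 2.79e-06, background 10.7% higher). Ly6e, at 57.8, 47.2 and 46.9 against 179.0, 123.8 and 105.9 CPM, fell by 1.43 on the log2 scale, and Ms4a6c fell by 1.14 (background 9.19% lower). Against M2-like cells, 7 members were higher in M1-like cells (background 31.3%), with the same limit of the filter for Ly6a, Ly6c2 and Ly6i. Ms4a7 was lower by 1.36 on the log2 scale (background 30.2% lower), while Ms4a4c was not called (1.96 ± 0.98, adjusted p = 0.0816), though it was by DESeq2 (adjusted p = 0.00285) and in a fit to the compared groups alone (adjusted p = 0.00766). Ly6i gave 1002 counts over the M1-like libraries against 1 over the M2-like ones, a ratio of 947.7 (95% interval 169.7 to 3.75e+04).

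With mock, Ly6e, Ms4a6b and Ms4a6c were higher than in untransfected cells in both M0 and M2-like cells, and Ms4a4c and Ms4a7 in M0 cells. Mock M2-like cells were also cultured without IL-4 after transfection, so reagent and loss of IL-4 cannot be told apart there. Ly6e stood at 244.1, 495.9 and 974.2 CPM in mock M0 cells (2.07 ± 0.29) and at 267.7, 581.9 and 466.6 in mock M2-like cells (3.12 ± 0.31), in both cases without overlap with the untransfected cells. Ms4a6b gave 8.55, 12.9 and 40.8 CPM in mock against 4.61, 3.91 and 3.82 in untransfected M0 cells (2.33 ± 0.41), and 5.83, 16.5 and 10.4 against 1.72, 1.80 and 2.58 in M2-like cells (2.41 ± 0.49). Ms4a4c gave 2.80, 3.76 and 14.3 CPM in mock M0 cells (3.39 ± 0.63, adjusted p = 0.000147) and 1.54, 3.996 and 3.56 in mock M2-like cells (3.04 ± 0.84, adjusted p = 0.0567; DESeq2 adjusted p = 1.29e-05). In M0 the called members were Ms4a4c, Ms4a6b, Ly6e, Ms4a7 (1.34 ± 0.17) and Ms4a6c (1.03 ± 0.25), against a background of 11.7%. Of these, Ms4a4c had few counts in untransfected M0 cells and passed the filter through groups where it was high. Its call therefore adds no support beside that background. In M2-like cells they were Ly6e, Ms4a6b and Ms4a6c (1.71 ± 0.27), against 1.67%. Ly6a was called in neither, with 1.31 ± 0.62 and 0.72 ± 0.84, though DESeq2 called it in M0 (adjusted p = 0.0347). Endothelial markers moved in the same comparisons, from 10.6 to 17.9 CPM in untransfected to 30.0 to 39.1 CPM in mock M0 cells and from 14.7 to 20.5 to 28.4 to 31.1 CPM in M2-like cells. In M0 cells macrophage markers fell from 16475 to 16833 to 12779 to 15563 CPM with mock. Monocyte (10.8 to 16.8 to 3.93 to 7.12), neutrophil and eosinophil markers also fell there without overlap. In M2-like cells macrophage, monocyte and neutrophil markers overlapped, and eosinophil markers rose from 15.5 to 18.1 to 18.8 to 20.1 CPM. The part of these markers was not tested.

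**Figure D2:**
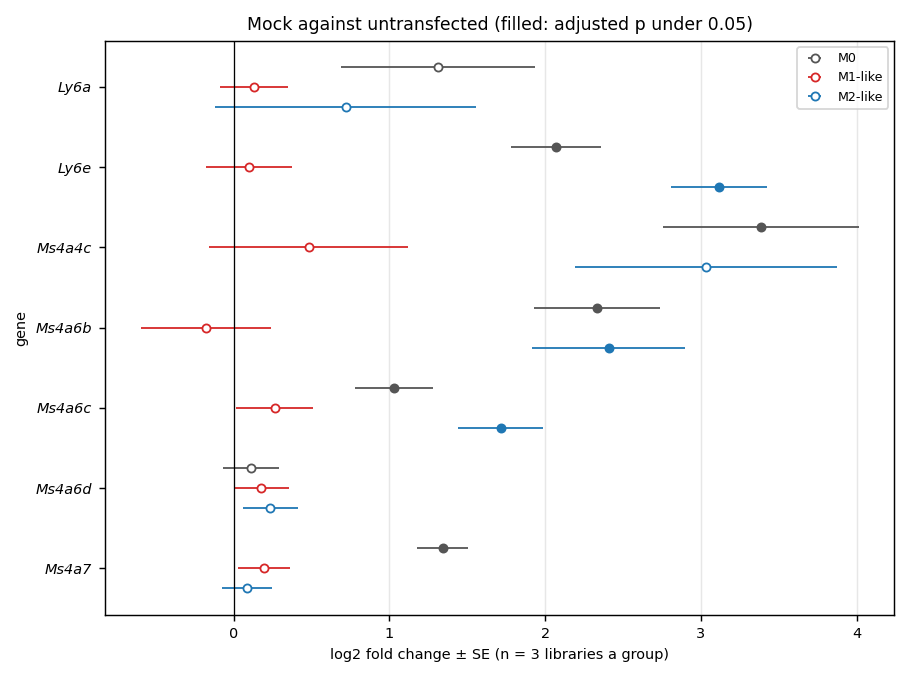
Log2 fold changes of members for mock against untransfected M0, M1-like and M2-like cells (error bars, SE of the edgeR fit; filled points, adjusted p under 0.05). Ly6c2 and Ly6i are left out because some groups held 3 counts or fewer; Ly6e moved by 2.07 in M0 and 3.12 in M2-like cells and by 0.10 in M1-like cells.

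Replicate 3 of mock M0 stood apart, with the highest value of its group for each of these 5 genes. Without it, Ly6e (1.44), Ms4a4c (2.34), Ms4a6b (1.40) and Ms4a7 (0.97) remained called, Ms4a6c (0.43, adjusted p = 0.156) was not, and Ms4a6d was called lower (-0.38, adjusted p = 0.0335). Without replicate 2 of mock M2-like, Ms4a6b was not called there (1.98, adjusted p = 0.0537), and without replicate 1 Ms4a4c was (3.37, adjusted p = 0.0268). Ly6c2 gave 0, 2 and 12 counts in untransfected and no count in mock M2-like cells, which was not called (adjusted p = 0.107) but was called lower with mock without M2-like replicate 1 (adjusted p = 0.0241), by DESeq2 (adjusted p = 0.0174) and with no filter (adjusted p = 0.00243). In M1-like cells no member was called (0 of 9, background 0%), and none had an unadjusted p under 0.05 or was called by DESeq2. The M1-like values of Ly6e were 376.1, 373.1 and 416.6 CPM with reagent and 342.9, 375.7 and 370.8 without, which overlapped. A test of the difference between states gave smaller mock effects in M1-like than in M0 cells for Ms4a6b (-2.51 ± 0.59), Ly6e (-1.97 ± 0.40) and Ms4a7 (-1.15 ± 0.23), with 5.85% of genes called lower. The mock effect on Ms4a7 was also smaller in M2-like than in M0 cells (-1.25 ± 0.23, background 3.25% lower). Without replicate 3 of mock M0, the mock effect was called larger in M2-like cells for Ly6e, Ms4a6c and Ms4a6d. The comparisons in M2-like cells use the mock libraries that also entered the choice of the genes.

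With the negative siRNA pool, which has no intended target, Ly6a stood at 13.9, 15.5 and 17.6 CPM and mock M2-like cells at 0.256, 1.19 and 1.05, a difference of 4.25 on the log2 scale (3.80 without mock replicate 1). Ms4a4c stood at 30.3, 36.9 and 44.4 against 1.54, 3.996 and 3.56, a difference of 3.63. These are the values that chose the genes and carry no test. Beside them, Ly6e, at 1432, 1478 and 1647 CPM, differed from mock by 1.79, Ms4a6b by 2.22, Ms4a6c by 1.27, Ms4a7 by 0.84 and Ms4a6d by 0.69. Ly6c2 gave 69 counts over the negative pool libraries and none over the mock ones, which is at least 20.7-fold higher against a floor of 3 counts over the group. Ly6i gave 9 counts against 1 (ratio 8.11, 95% interval 1.12 to 355), and Ly6c1 3 against 1.

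The siRNA pools against transcription factors could be set against untransfected M2-like cells, which share no library with the contrast that chose the genes. The genes were chosen for a rise with an siRNA pool, so a rise with other siRNA pools is still not independent of that choice. Reagent, siRNA, culture without IL-4 after transfection and any difference in time act together in this comparison. In the combined and the Myc pool, 9 of 9 tested members were higher (background 21.6% and 22.4%). In the E2f1, Pparg and Stat6 pools 8 were higher (background 11.3%, 14.2% and 10.9%), and Ly6i was not called (adjusted p = 0.185, 0.0936 and 0.134). Fitted to untransfected M0 and M2-like cells alone, 5 members passed the filter. Ly6a, Ly6c2, Ly6i and Ms4a4c passed it through groups where they were high, so their calls add no support to these counts.

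Ly6a stood at 9.44, 17.9 and 13.3 CPM with the E2f1 pool, 12.6, 22.0 and 24.9 with the Stat6 pool, 16.1, 23.2 and 24.5 with the Myc pool, 18.3, 24.7 and 23.1 with the Pparg pool and 18.9, 28.3 and 32.4 with the combined pool. Against untransfected M2-like cells its log2 fold changes were 4.77 ± 0.48 (E2f1) to 5.73 ± 0.45 (combined), and its level lay below that of untransfected M1-like cells in every target pool library. Ms4a4c stood at 39.5, 51.6 and 61.0 CPM with the E2f1 pool, 39.8, 47.3 and 77.2 with the Stat6 pool, 66.6, 74.9 and 101.4 with the Pparg pool, 79.9, 80.3 and 128.8 with the Myc pool and 104.5, 96.5 and 138.9 with the combined pool. Its log2 fold changes were 7.11 ± 0.55 to 8.27 ± 0.52, and here every target pool library lay above every M1-like library of the same experiment.

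Ly6e, the most abundant member in these cells, reached 1235 to 2263 CPM in the 15 libraries of the 5 target pools (log2 fold changes 4.83 to 5.11). Ms4a6b reached 41.5 to 82.9 CPM (4.58 to 5.16) and Ms4a6c 108.1 to 181.1 CPM (3.0 to 3.29). Both lay above the untransfected M2-like range of 1.72 to 2.58 CPM for Ms4a6b and 13.8 to 17.9 CPM for Ms4a6c. Ms4a7, at 187.4 to 296.5 CPM, changed by 1.02 to 1.22, and Ms4a6d, at 156.9 to 220.1 CPM, by 0.84 to 1.06. These were the smallest changes among the members that passed in each pool. Ly6c2 changed by 2.19 to 4.31 from a group with 0, 2 and 12 counts. Ly6i gave 34, 177 and 112 counts with the combined pool and 66, 174 and 151 with the Myc pool, against 0, 1 and 0 in untransfected M2-like cells, and 1 to 9 a library with the other pools.

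**Figure D3:**
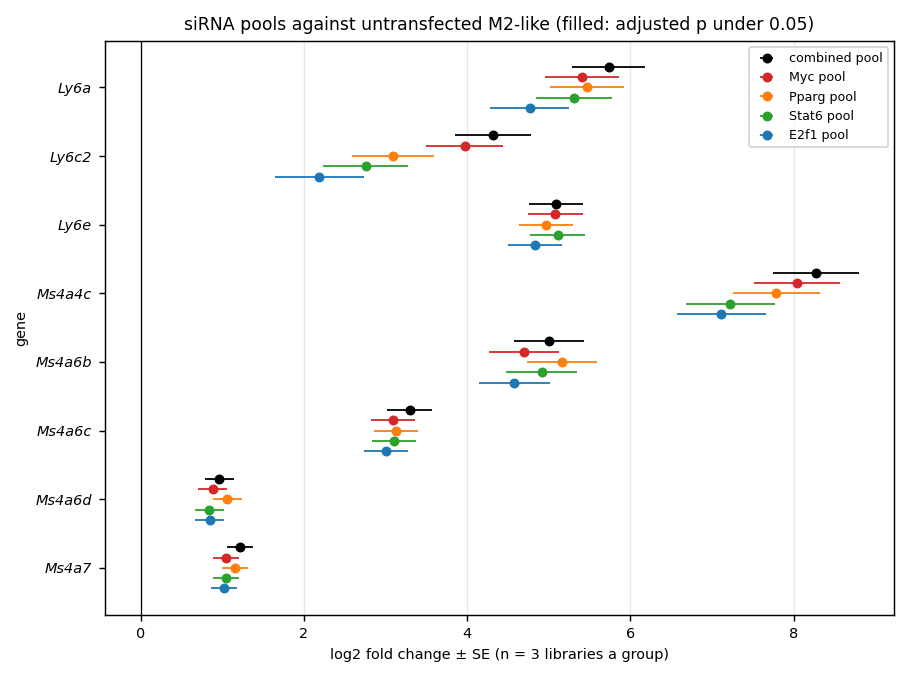
Log2 fold changes of members for each target pool against untransfected M2-like cells (error bars, SE of the edgeR fit; filled points, adjusted p under 0.05). Ly6i is left out because the untransfected group held 1 count; Ms4a4c shows the largest change in each target pool (7.11 to 8.27) and Ms4a6d and Ms4a7 the smallest (0.84 to 1.22).

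Against the mock libraries, which were also the reference in the contrast that chose the genes, the counts were the same: 9 of 9 with the combined (background 19.0%) and Myc (19.8%) pools, and 8 with the E2f1 (6.31%), Pparg (9.59%) and Stat6 (6.13%) pools. The limit of the filter holds here for Ly6c2 and Ly6i. Ly6a was higher by 4.05 to 5.01 and Ms4a4c by 4.08 to 5.24. Ms4a6d, at 0.61 (adjusted p = 0.0207) with E2f1 and 0.60 (adjusted p = 0.0226) with Stat6, lost its call with E2f1 without replicate 2 of that pool (0.49, adjusted p = 0.131) or without mock replicate 1 or 3 (0.53 and 0.59), and with Stat6 without replicate 2 or 3 of that pool (0.58 and 0.56) or mock replicate 1 or 3 (0.52 and 0.58). Ly6c2, with no count in mock, was at least 21.7-fold higher with the E2f1 pool, 31.8-fold with Stat6, 40.1-fold with Pparg, 72.9-fold with Myc and 95.02-fold with the combined pool. Ly6i ratios were 282 (95% interval 50.3 to 1.12e+04) with the combined pool and 308 (95% interval 55.0 to 1.22e+04) with the Myc pool.

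Against the negative pool, which carried reagent and siRNA too, calls fell on Ly6 paralogs and Ms4a4c. The negative pool libraries are an arm of the contrast that chose the genes, above all Ly6a and Ms4a4c, so these tests are not independent of that choice. With the combined pool Ly6i was higher by 5.04 ± 0.63 (adjusted p = 3.42e-07), Ly6c2 by 2.17 ± 0.36 (adjusted p = 3.44e-05), Ms4a4c by 1.61 ± 0.28 (adjusted p = 6.86e-05) and Ly6a by 0.76 ± 0.26 (adjusted p = 0.0258), 4 of 9 against a background of 12.5%. With the Myc pool Ly6i (5.22 ± 0.62), Ly6c2 (1.83 ± 0.36) and Ms4a4c (1.37 ± 0.28) were higher (background 13.9%). Of the 9 Ly6i counts in the negative pool 7 lay in replicate 3, without which the changes of Ly6i were 6.46 with the combined and 6.65 with the Myc pool. With so few counts in the negative pool, Ly6i passed the filter through groups where it was high. With the Pparg pool Ms4a4c alone was called (1.12 ± 0.28, adjusted p = 0.0137, background 2.71%). The E2f1 (background 0.261%) and Stat6 (background 0.466%) pools gave 0 calls by edgeR, 0 at an unadjusted p under 0.05 and 0 by DESeq2. Ly6e, Ms4a6b, Ms4a6c, Ms4a6d and Ms4a7 were not called in any of the 5 pools, with log2 fold changes between -0.09 and 0.53.

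The level of the target in its own pool was 25.2% of that in the negative pool for E2f1, 38.0% for Myc, 21.9% for Pparg and 27.3% for Stat6, and in the combined pool 60.4%, 39.6%, 28.3% and 54.0%. The siRNAs against Myc came from another supplier than those against E2f1, Pparg and Stat6. The ranges that follow are a description only, since the share of all genes without overlap is not given here. Ly6i and Ly6c2 did not overlap between the negative pool and either the combined or the Myc pool, and nor did Ms4a4c. Ly6a did not overlap between the negative and the combined pool either, at 13.9 to 17.6 against 18.9 to 32.4 CPM, and it lost its call without replicate 2 or 3 of the combined pool (adjusted p = 0.0747 and 0.133), without replicate 1 or 2 of the negative pool (adjusted p = 0.0979 and 0.0654), and by DESeq2 (adjusted p = 0.15). Ms4a4c with Pparg lost its call without replicate 3 of that pool (adjusted p = 0.122), without replicate 1 of the negative pool (adjusted p = 0.0912) and by DESeq2 (adjusted p = 0.0949). Summed over the 4 Ly6 paralogs, the difference from the negative pool was 1.18 (adjusted p = 0.00121) with the combined pool and 0.95 (adjusted p = 0.00754) with the Myc pool. These comparisons share the negative pool libraries.

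**Figure D4:**
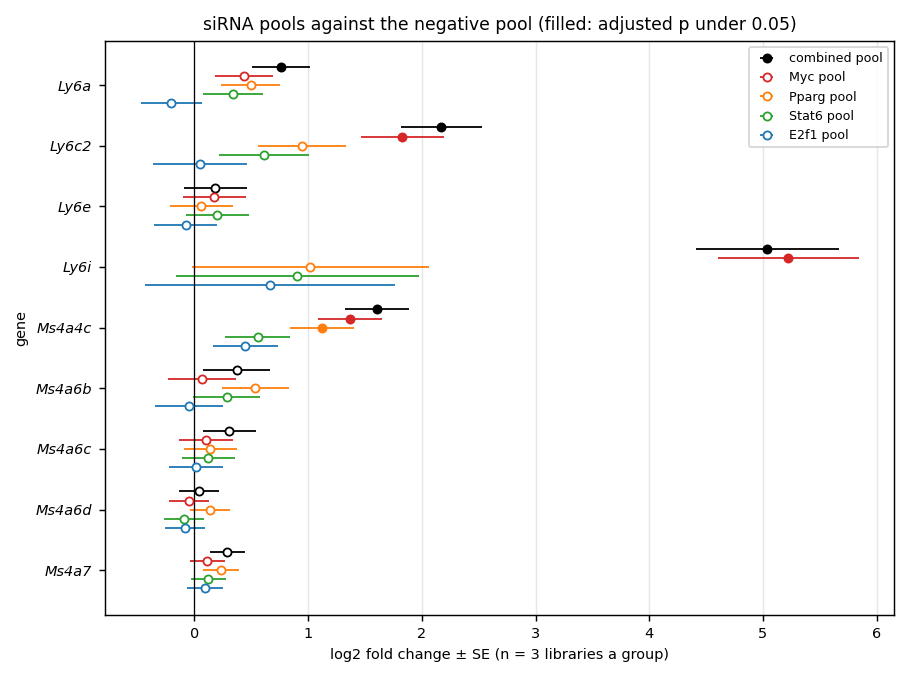
Log2 fold changes of members for each target pool against the negative siRNA pool (error bars, SE of the edgeR fit; filled points, adjusted p under 0.05). Ly6i (5.04 and 5.22) and Ly6c2 (2.17 and 1.83) stand out with the combined and Myc pools, and no point is filled for the E2f1 and Stat6 pools.

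The members differed in which of the 12 conditions held most of their RNA. The mean of Ly6a was highest in mock M1-like (141.9 CPM) and untransfected M1-like cells (129.8), which overlapped, followed after a gap by the combined pool (26.5), the Pparg, Myc, Stat6, negative and E2f1 pools, whose neighbours overlapped, and after a second gap by mock M0 (1.88), mock M2-like (0.831), M0 (0.734) and M2-like cells (0.483). Ms4a4c ran from the combined pool (113.3) through Myc (96.3), Pparg (81.0), Stat6 (54.8), E2f1 (50.7) and negative pool (37.2), and then, after its only gap between neighbours, to mock M0 (6.96), mock M2-like (3.03), mock M1-like (1.98), M1-like (1.40), M0 (0.649) and M2-like cells (0.357). Per kilobase of exon, Ly6e was the highest member in the combined pool (455.7 CPM per kb), ahead of Ms4a6d (112.4), Ms4a6c (76.9), Ms4a4c (64.7), Ms4a7 (58.2) and Ly6a (22.0). After 24 h with LPS and IFNγ the order was Ms4a6d (594.2), Ly6a (358.5), Ly6i (281.3), Ly6e (142.0), Ms4a6c (138.2) and Ms4a4c (100.4).

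**Figure D5:**
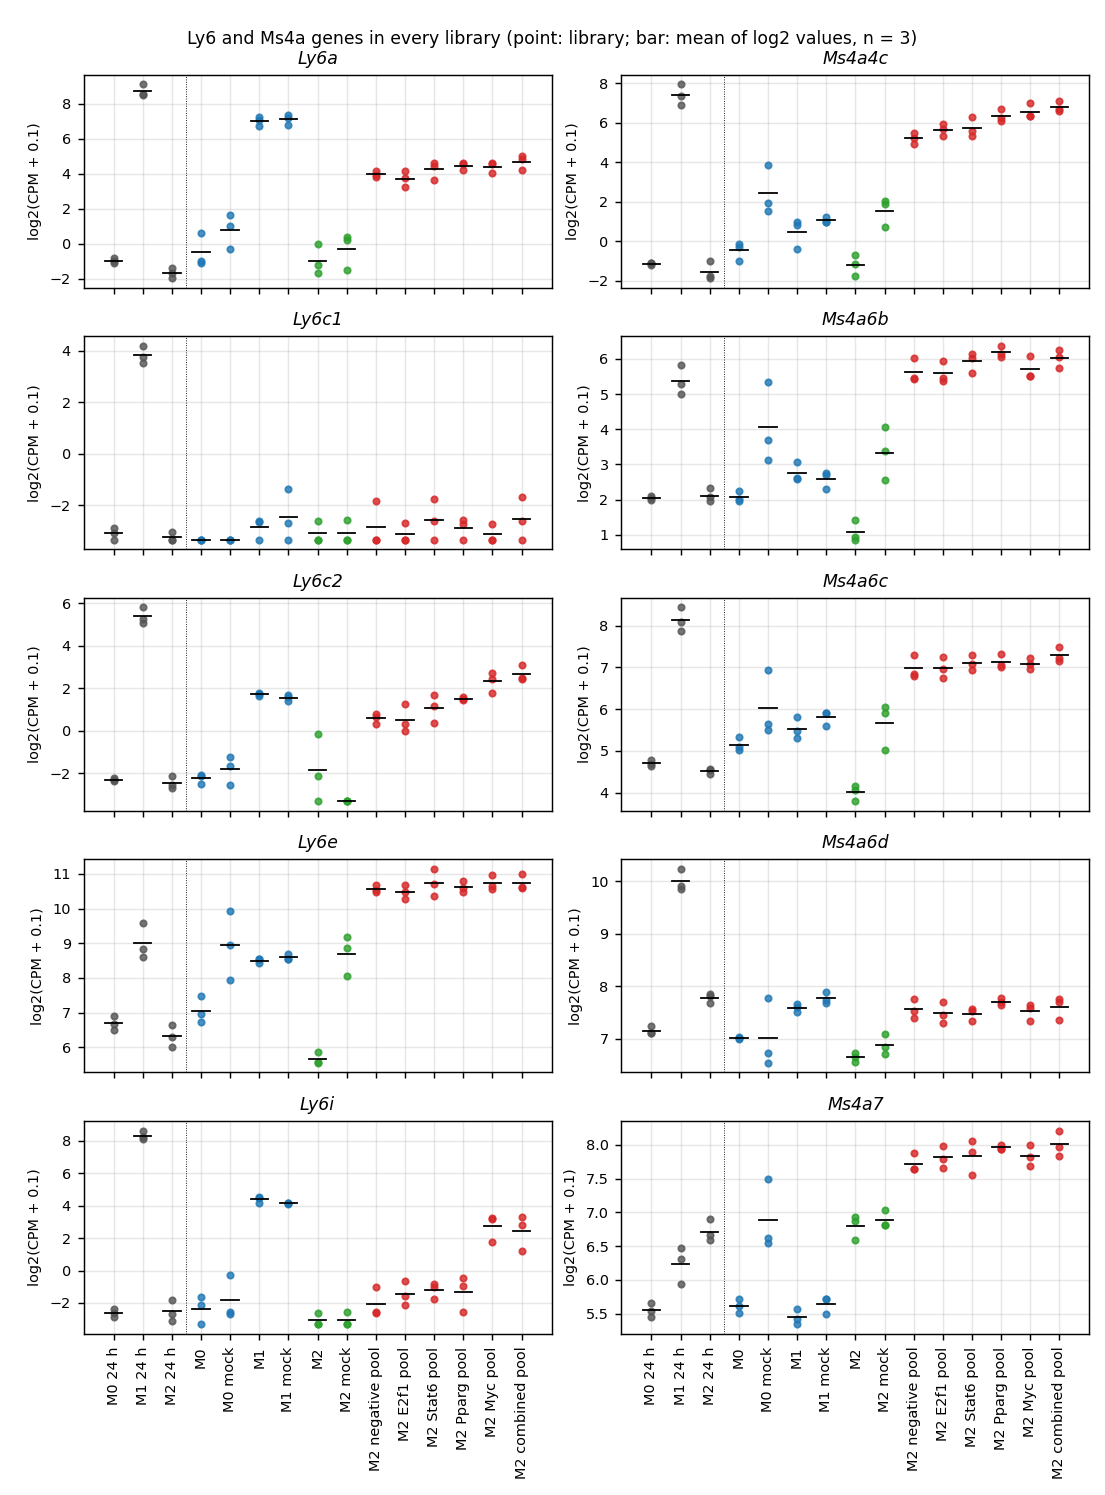
Levels of the 10 members in all 15 conditions, as log2(CPM + 0.1); points are libraries (for the 24 h groups, mice) and bars the mean of the log2 values. Grey marks the 24 h groups, blue M0 and M1-like cells, green M2-like cells without siRNA and red the siRNA pools, with M1 and M2 standing for M1-like and M2-like. Ly6a is highest in M1-like cells in both experiments, while Ms4a4c is high in M1-like cells at 24 h (120.3 to 245.8 CPM) and in the siRNA pools (30.3 to 138.9 CPM) but not in M1-like cells of the second experiment (0.669 to 2.23 CPM).

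The ratio of the Ly6 paralogs also varied. Ly6c1 counts were 39.3%, 30.4% and 32.9% of Ly6c2 counts in M1-like cells at 24 h, read with 50-base ends, and 0% to 9.52% in untransfected and mock M1-like cells of the second experiment. Ly6c2 counts were 9.14% to 10.3% of Ly6a counts in M1-like cells at 24 h, 1.75% to 3.04% in untransfected and mock M1-like cells of the second experiment, 16.9% to 29.6% with the combined pool and 20.8% to 26.7% with the Myc pool. The part of read length in the first of these was not tested.

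Over the 12 condition means, the genes whose log2 level ran most like that of Ly6a, of 10223 candidates, were A530040E14Rik (r = 0.992), Tap1 (0.983), Gm43302 (0.981), Ctsc (0.981) and Sp140 (0.980). For Ms4a4c they were Samd9l (0.988), Slfn4 (0.988), Ddx60 (0.986), Ms4a6b (0.986) and Pla2g2e (0.984). Ly6a and Ms4a4c themselves had r = 0.424, while Ms4a6d had 0.939 with Ly6a. The means share libraries with the comparisons above, and these values are a description.

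Of 46 other genes of both families that were listed, 40 could be matched by symbol, and 9 and 8 passed the filter in the first and second experiments. In M1-like against M0 cells at 24 h, 4 of 9 were higher, among them Ms4a4b (5.34) and Plaur, the urokinase receptor (1.48), and Cd59a, a complement inhibitor, was lower by 3.07 on the log2 scale, where 35.4% of all genes were called higher. The median of these 9 was 0.23 and that of all genes -0.04. With the combined pool against mock, 2 of 8 were higher (19.0% of all genes), Ms4a4d and Ms4a4b (1.53), and Cd59a fell by 0.73. Against the negative pool 1 was higher and 1 lower, where 12.5% of all genes were higher and 13.9% lower.

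Of 30 listed interferon-stimulated genes, 30 were higher in M1-like than M0 cells at 24 h (median 5.78, 35.4% of all genes called higher), led by Cxcl10 (12.91), a chemokine, and Ifi44 (12.37). With mock against untransfected cells 29 of 30 were higher in M0 (median 2.62, all genes 11.7%) and 29 in M2-like cells (median 3.05, all genes 1.67%), where Ifit3b (6.34), Ifi44 (5.57), Ifit3 (5.48) and Ifit2 (5.44), antiviral effector genes, led, while 0 were called in M1-like cells by edgeR (median 0.16, all genes 0%). Against mock, 29 or 30 were higher in each target pool, with medians from 1.33 with the E2f1 pool to 1.89 with the combined pool, where 6.31% and 19.0% of all genes were called higher. Against the negative pool, 13 were higher with the combined pool (median 0.42, all genes 12.5%), Cxcl10 (1.99) and Ifit3b (1.17) leading, 7 with the Myc pool (median 0.35, all genes 13.9%) and 0 with the others. The median over all genes stayed within 0.06 of 0 in each comparison.

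Ifnb1, which encodes interferon beta, gave no count in untransfected and mock M2-like cells, and over the 3 libraries of each pool 5 counts with the negative, 2 with the E2f1, 9 with the Stat6, 11 with the Pparg, 48 with the combined and 55 with the Myc pool. Against the negative pool it was higher by 3.15 ± 0.73 (adjusted p = 0.00214) with the combined and 3.22 ± 0.72 (adjusted p = 0.00134) with the Myc pool. Both changes rest on the 5 counts in the negative pool, and a relation of Ifnb1 to the members was not tested. Ifngr1, a subunit of the IFNγ receptor, was lower in M1-like than M0 cells, by 1.42 at 24 h and 1.13 in the second experiment on the log2 scale. Of 8 tested interferon ligand and receptor genes, 1 was higher and 2 were lower in the combined and in the Myc pool against the negative pool. Of all genes, 12.5% were higher and 13.9% lower with the combined pool, and 13.9% and 15.6% with the Myc pool.

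The macrophage identity of the cells was checked with 7 markers, all detected in each group. Their summed level was 14738 to 18320 CPM in untransfected and mock M2-like cells and 11632 to 13719 CPM in the siRNA pools, without overlap. Of the 8 neutrophil markers, Ly6g had no count in the second experiment and S100a9 none outside untransfected M2-like cells, but the sum of all 8 was higher in the siRNA pools. The 3 endothelial markers summed to 14.7 to 31.1 CPM in untransfected and mock M2-like cells and 48.1 to 76.8 CPM in the siRNA pools, where Tek had no count in the negative, Pparg and Stat6 pools. The 6 fibroblast and mesothelial markers summed to 100.4 to 326.1 and 183.2 to 398.6 CPM in the same sets, and the 3 monocyte markers to 7.01 to 12.9 and 4.85 to 13.2 CPM. The 8 neutrophil markers summed to 24.6 to 30.4 and 31.7 to 115.1 CPM, without overlap, and the 4 eosinophil markers to 15.5 to 20.1 and 17.2 to 46.1 CPM. The part of such cells in the members' levels was not tested.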

How the data were processed

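The authors deposited raw counts of reads per gene, made with Trimmomatic, TopHat and featureCounts on mm10 per the labels and methods; versions, strand setting and the treatment of reads with several matches were not given in the sources used here. From these counts, technical replicates were summed per mouse and each experiment was fitted on its own with edgeR 4.0.16 in R 4.3.3 (TMM scaling, filterByExpr with a minimum count of 10 and a minimum total of 15, quasi-likelihood test, two-sided, Benjamini-Hochberg over all 16110 or 14172 genes that passed, called at an adjusted p under 0.05). SE is the log2 fold change divided by the square root of F. The samples fall into 15 groups by the labels, and the depth per library is given with the results; for genes with few counts, ratios carry exact 95% intervals or a floor of 3 counts, which cover counting error only.

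The members, gene lists and tests were chosen with earlier results of these data known. The text names all 10 members, at most 4 called genes per list with the largest change, the 5 genes most like Ly6a and Ms4a4c, and the siRNA targets. In the first experiment samples with the same number come from the same mouse (median correlation of deviations 0.25 against -0.135 for different mice). The alternatives were DESeq2 1.42.0, its size factors in edgeR, other filters, untransfected M2-like cells as the reference, the summed Ly6 paralogs, technical replicate 1 only, fits to the compared groups, a replicate block and leaving out each sample. The fits were tested on simulated data. Sequences came from RefSeq and GENCODE on GRCm38. A further promoter pattern that was searched is not reported here.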

Additional observations from a re-analysis of the deposited data

Results flagged for a closer look

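The difference between mock and untransfected cells, called the mock effect, differed between macrophage states for 3 members, as tested by an interaction term in edgeR. The mock effect was smaller in M1-like than in M0 cells for Ms4a6b by -2.51, for Ly6e by -1.97 and for Ms4a7 by -1.15 on the log2 scale. It was also smaller in M2-like than in M0 cells for Ms4a7, by -1.25. In mock M0 cells replicate 3 was the highest library for each of these genes. Without it the 3 differences between M1-like and M0 cells were -1.58 for Ms4a6b (adjusted p = 0.0224), -1.35 for Ly6e (adjusted p = 0.00778) and -0.77 for Ms4a7 (adjusted p = 0.00427), and that of Ms4a7 between M2-like and M0 cells was -0.88 (adjusted p = 0.00151). Other members then had a larger mock effect in M2-like than in M0 cells, not called with all libraries. These were Ly6e (1.67, adjusted p = 0.00219), Ms4a6c (1.29, adjusted p = 0.0046) and Ms4a6d (0.61, adjusted p = 0.0222).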

How the results depend on the processing

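Counts of called members kept within 1.5 times under most alternatives, and the exceptions were as follows. Requiring at least 10 counts in every sample left fewer members to test, with 6 called in M1-like against M0 and against M2-like cells at 24 h, 2 and 5 in the untransfected comparisons of M1-like with M0 and M2-like cells, 5 in each pool against mock, and 0 in the combined, Myc and Pparg pools against the negative pool. In the second experiment this removed Ly6a, Ly6c2, Ly6i and Ms4a4c. They were the only members called against the negative pool, so the 0 there was fixed by the filter. Without a filter, 8 and 5 were called for untransfected M1-like and M2-like against M0, 5 for mock in M2-like cells, 6 and 4 for the differences in mock effect of M1-like and M2-like from M0 cells, and 7, 4, 1 and 1 for the combined, Pparg, E2f1 and Stat6 pools against the negative pool. DESeq2 called 5 for mock in M2-like cells, 2 for the difference in mock effect between M2-like and M0 cells and 0 for Pparg against negative. Fits to the compared groups alone called 5 for untransfected M2-like against M0 and 4 for Pparg against negative. With the replicate block, 4 were called for M2-like against M0 at 24 h, 2 for the M2-like difference in mock effect and 2 for Pparg against negative, and calls were gained for Ly6a in mock M0 (adjusted p = 0.0148), Ms4a4c in mock M2-like (adjusted p = 0.00118) and Ms4a4c in untransfected M1-like against M2-like cells (adjusted p = 0.0141); same-numbered libraries of the second experiment share only a number by the labels (median r 0.183, from -0.249 to 0.627), and 34 of 36 correlated best with their own number. Leaving out 1 sample gave 1 to 4 calls for the M2-like difference in mock effect (4 without M0 mock replicate 3, 2 without M2-like replicate 1 or 2), and 0 to 1 for Pparg against negative (0 without Pparg replicate 3 or negative replicate 1). Of the 4 calls without M0 mock replicate 3, 3 were larger and 1 was smaller in M2-like cells. Ms4a6d for mock in M0 turned to -0.38 without M0 mock replicate 3 (0.34 without M0 mock replicate 2, the highest of its range). The causes were not tested. At this depth, Ly6c1 could not be tested in the second experiment.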
